A study of Rattus norvegicus with 8 samples.

Results

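Gpr149, Gpr151 and Ptger3 encode G protein-coupled receptors of neurons in the habenula and its surroundings that are neither peptide nor amine receptors. Each was taken as the probe set whose single gene symbol in the platform annotation is that gene, which gave 3 probe sets among the 379 in the deposited table, 283 of which carry a single symbol. Habenula RNA came from 8 male Sprague-Dawley rats, with 1 Affymetrix whole-transcript array per rat. The stress group held rats 7, 8, 10 and 12, which spent 2 hours a day for 14 days restrained in breathable plastic film envelopes. The non-stress group held rats 1, 3, 4 and 5, which stayed in their home cages without a stressor. No source used here states the rats' ages. The table holds only probe sets that the authors had picked for a difference between these same arrays. The size and direction of each group difference below is therefore a description and carries no test.

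The habenula is a small epithalamic structure with a medial and a lateral part. Cholinergic and substance P neurons of the medial part send their axons through the fasciculus retroflexus to the interpeduncular nucleus, while the lateral part reaches monoamine cell groups of the midbrain. Gpr151 is an orphan receptor, meaning that no natural ligand is settled, and is known for its strong expression in habenular neurons, where the protein lies in axons that reach the interpeduncular nucleus. Gpr149 is also an orphan receptor and is far less studied. Ptger3 encodes EP3, a receptor for prostaglandin E2 that couples mainly to Gi proteins and so lowers cyclic AMP, and that is best known from the preoptic area, where it mediates fever.

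Markers of the medial habenula were looked up. Their presence among probe sets picked for a difference does not check the tissue label. Of 16 such symbols, 10 were in the table, among them the nicotinic receptor subunits Chrna3 (12.26 ± 0.05 in stressed and 12.61 ± 0.13 in non-stress rats, log2 intensity, SD, n = 4 each), Chrnb3 and Chrnb4, the transporters Slc18a3 and Slc5a7, and the tachykinin precursors Tac1 and Tac3. The other 6, Chat, Chrna5, Pou4f1, Nhlh2, Il18 and Gng8, were not in the table, which holds only probe sets picked for a difference. Array medians over the table lay between 8.60 and 8.68 in stressed rats and between 8.62 and 8.77 in non-stress rats.

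The 2 orphan receptors gave less signal in stressed than in non-stress rats, and the prostaglandin receptor gave more. The largest of the 3 differences was that of Gpr149, at -0.79 ± 0.13 on the log2 scale (stress minus non-stress, limma's SE, n = 4 rats each), followed by Gpr151 at -0.42 ± 0.09 and Ptger3 at 0.34 ± 0.09. As folds, the stressed rats were at 0.579 of the non-stress level for Gpr149, at 0.748 for Gpr151 and at 1.26 for Ptger3. In bulk tissue, fewer cells of a type and less RNA per cell cannot be told apart.

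Gpr149 had log2 intensities of 8.59, 8.58, 8.60 and 8.82 in stressed rats 7, 8, 10 and 12, against 9.68, 9.77, 9.16 and 9.13 in non-stress rats 1, 3, 4 and 5. Stressed rats 7, 8 and 10 were nearly equal and rat 12 lay above them, while the non-stress rats split into a higher pair, rats 1 and 3, and a lower pair, rats 4 and 5. The groups did not overlap, with 0.31 between the highest stressed and the lowest non-stress rat. Gpr149 averaged 8.65 ± 0.12 in stressed rats and 9.43 ± 0.34 in non-stress rats (SD, n = 4 each), and it had the largest difference of the 210 probe sets that were lower in stressed rats.

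Gpr151 had log2 intensities of 11.45, 11.41, 11.34 and 11.43 in stressed rats 7, 8, 10 and 12, against 11.89, 12.02, 11.60 and 11.80 in non-stress rats 1, 3, 4 and 5. All stressed rats lay below all non-stress rats, with a gap of 0.15 between the groups. The mean was 11.41 ± 0.05 in stressed rats and 11.83 ± 0.18 in non-stress rats (SD, n = 4 each), and the difference ranked 51 among the 210 lower probe sets.

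Ptger3 had log2 intensities of 9.78, 9.81, 9.76 and 9.73 in stressed rats 7, 8, 10 and 12, against 9.40, 9.23, 9.56 and 9.54 in non-stress rats 1, 3, 4 and 5. All stressed rats lay above all non-stress rats, with a gap of 0.18. The mean was 9.77 ± 0.03 in stressed rats and 9.43 ± 0.15 in non-stress rats (SD, n = 4 each), and the difference ranked 70 among the 169 probe sets that were higher in stressed rats.

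**Figure D1:**
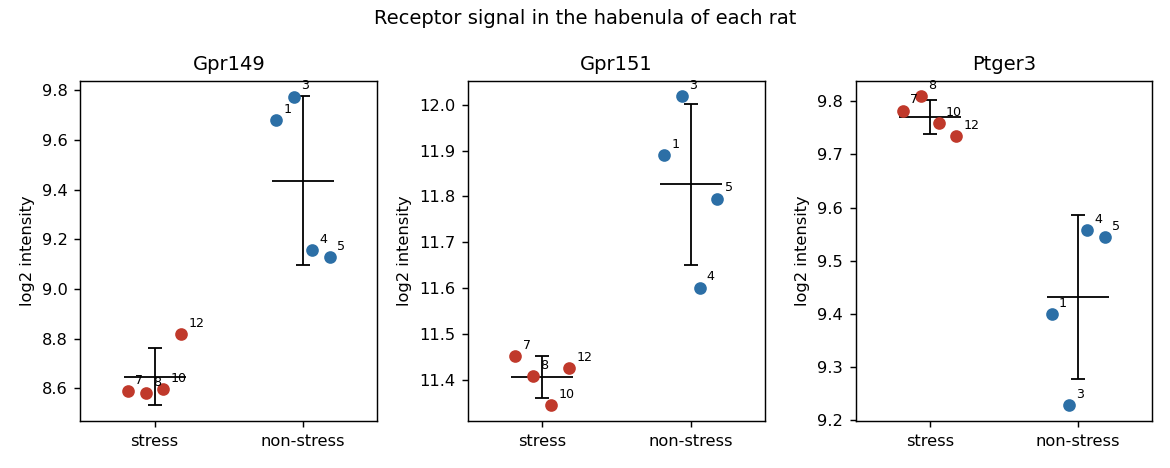
Log2 intensity of Gpr149, Gpr151 and Ptger3 in each rat (points, numbered by rat), with stressed rats left and non-stress rats right; bars are the mean and SD of 4 rats. Gpr149 and Gpr151 lie lower and Ptger3 higher in every stressed rat than in any non-stress rat, and the non-stress rats spread more widely in all 3 panels.

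The groups did not overlap for 3 of the 3 receptors. Groups that did not overlap were found for 83.4% of all probe sets of the table, 46.4% with stressed rats lower, as for Gpr149 and Gpr151, and 36.9% with stressed rats higher, as for Ptger3. Because the table had been picked on this contrast, nothing is read from these counts. In the authors' deposited table the unadjusted p-values of the 3 receptors were 0.0141 for Gpr149, 0.0144 for Gpr151 and 0.0195 for Ptger3, where the largest p in the table was 0.0499 and the smallest absolute log2 difference 0.26.

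The receptors varied less among stressed than among non-stress rats. The SD in stressed rats was 0.340 times that in non-stress rats for Gpr149, 0.259 times for Gpr151 and 0.207 times for Ptger3, where the median probe set of the table had a ratio of 0.691. The SD was smaller in stressed rats for 257 of the 379 probe sets (67.8%). The ratios describe 4 rats per group and were not tested. A p-value for a group difference usually depends on the spread within groups, so the picking of the table may not have been blind to these SDs.

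How the receptors relate to each other within groups was not used in picking the table. For this, each rat's value was taken as its distance from its own group's mean, so that the group difference does not enter. Ptger3 ran against Gpr149 from rat to rat. In the non-stress group, rats 3 and 1, with the highest Gpr149, had Ptger3 at -0.20 and -0.03 from its group mean, and rats 4 and 5, with the lowest Gpr149, had it at 0.13 and 0.11. In the stressed group the order of the rats was exactly turned round, with rat 12 highest in Gpr149 and lowest in Ptger3, followed by rats 10, 7 and 8. Stressed rats spanned only 0.07 in Ptger3, however, against 0.33 in non-stress rats.

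Over the 8 rats Pearson's r of Gpr149 and Ptger3 within groups was -0.92 (exact permutation of rats within groups, 2-sided, p = 0.00694, adjusted p = 0.0260 over the 9 relations computed) and Spearman's rho was -0.95 (exact permutation p = 0.0139, adjusted p = 0.0375). The smallest p that all orders of 4 rats within each group allow is 0.00174. When non-stress rats 1 and 3, the farthest from the median of Gpr149, were left out, r was -0.77 and did not pass (exact permutation p = 0.250; the smallest p that the 48 orders of 6 rats allow is 0.0208). After each array was centred on its median, r was -0.87 and no longer passed (exact permutation, adjusted p = 0.182 over the 6 relations left), and after quantile normalization it was -0.83 (exact permutation, adjusted p = 0.132). Nor did it pass when stressed rat 8 or 12 or non-stress rat 1, 3, 4 or 5 was left out (r from -0.97 to -0.89, exact permutation, adjusted p from 0.0625 to 0.125). With 7 rats the smallest p is 0.00694, which adjusts to 0.0625 where a single relation reaches it. Before adjustment, the p-values of these lost calls lay above that limit, from 0.0208 to 0.0486 (exact permutation). Without stressed rat 7 or 10 the relation passed (exact permutation, adjusted p = 0.0313 and 0.0375).

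Gpr151 lay with Gpr149 and against Ptger3, but neither relation passed the test. In the non-stress group the order of the rats from high to low Gpr151, 3, 1, 5 and 4, was the order from low to high Ptger3. In the stressed group the order from high to low Gpr151 was 7, 12, 8 and 10, which matched neither of the other receptors, within a span of 0.11. Pearson's r within groups was 0.80 for Gpr149 and Gpr151 (exact permutation p = 0.111, adjusted p = 0.133; Spearman's rho 0.76, adjusted p = 0.201) and -0.85 for Gpr151 and Ptger3 (exact permutation p = 0.118, adjusted p = 0.133; rho -0.76, adjusted p = 0.176). Without non-stress rats 1 and 3, r of Gpr149 and Gpr151 was 0.024 (exact permutation p = 0.979), and without non-stress rats 3 and 4, r of Gpr151 and Ptger3 was -0.51 (exact permutation p = 0.604). A p that misses the threshold with 8 rats does not show that the receptors vary independently.

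**Figure D2:**
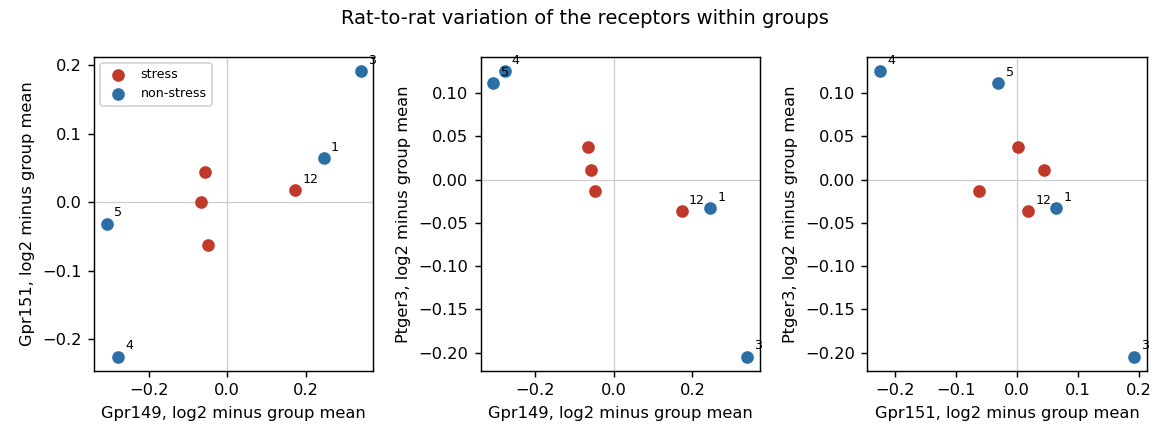
Each panel plots a pair of receptors as log2 intensity minus the group mean, with stressed and non-stress rats in different colours and selected rats numbered. Gpr149 and Ptger3 fall along a descending line (r = -0.92 over 8 rats), and most of the spread in every panel comes from the non-stress rats.

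Most of this variation came from the non-stress group, which held 89.7% of the within-group sum of squares of Gpr149, 93.7% of that of Gpr151 and 95.9% of that of Ptger3. When each group's values were also divided by that group's SD, a setting chosen after seeing the data, r was -0.87 for Gpr149 and Ptger3 (exact permutation, adjusted p = 0.0156), 0.54 for Gpr149 and Gpr151 (adjusted p = 0.315) and -0.37 for Gpr151 and Ptger3 (adjusted p = 0.439).

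For comparison, of the 378 other probe sets, 15 (3.97%) had an r with Gpr149 at least as far from 0 as Ptger3 did, and 33 (8.73%) had an r with Ptger3 at least as far from 0 as Gpr149 did. At least as far from 0 with Gpr149 as Gpr151 were 76 (20.1%). With Gpr151, 52 (13.8%) were at least as far from 0 as Ptger3, and with Ptger3, 67 (17.7%) were at least as far as Gpr151. Each of these counts includes the receptor compared. The median r with Gpr149 was 0.65 over the 209 other probe sets that were lower in stressed rats and -0.25 over the 169 that were higher. The medians were 0.66 and -0.23 with Gpr151, and -0.68 over the 210 lower and 0.19 over the 168 other higher probe sets with Ptger3. All these values share the same 8 arrays.

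**Figure D3:**
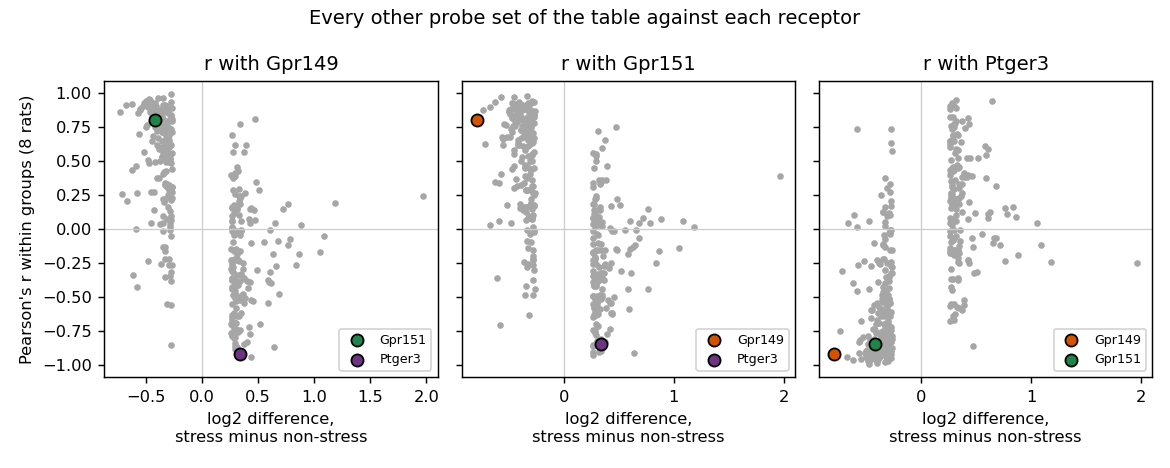
Pearson's r within groups of each receptor with every other probe set of the table (vertical axis), against that probe set's log2 difference, stress minus non-stress (horizontal axis); large points are the other receptors. Lower probe sets gather at high r with Gpr149 and Gpr151 (medians 0.65 and 0.66) and at low r with Ptger3 (median -0.68).

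Within groups the medial habenula markers varied with Gpr149 and against Ptger3, and their relation to Gpr151 did not pass. All 10 in the table were lower in stressed rats, as were 55.4% of all 379 probe sets. Their median difference was -0.48, beside -0.34 over the 210 lower probe sets and -0.28 over all. In 9 of these 10 no stressed rat reached the lowest non-stress rat, beside the 46.4% of all probe sets that were lower with no overlap, and nothing is read from these counts. Their score, the mean log2 value after each gene was centred over the 8 arrays, ran from -0.28 to -0.20 in stressed and from 0.04 to 0.50 in non-stress rats. Their summed linear intensity ran from 14959 to 16085 in stressed and from 18376 to 25259 in non-stress rats. Within groups, Ptger3 had an r of -0.99 with this score (exact permutation p = 0.00174, the smallest possible, adjusted p = 0.0156; rho -0.98, adjusted p = 0.0313), Gpr149 of 0.89 (exact permutation p = 0.0260, adjusted p = 0.0469; rho 0.98, adjusted p = 0.0375) and Gpr151 of 0.88 (exact permutation p = 0.0712, adjusted p = 0.107; rho 0.81, adjusted p = 0.176).

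Taken gene by gene, the 10 markers had a median r within groups of 0.79 with Gpr149, 0.77 with Gpr151 and -0.87 with Ptger3. The medians over all other lower probe sets were 0.65, 0.66 and -0.68. Over the 3 hippocampal markers described below they were 0.78, 0.87 and -0.94. Other settings gave the following for the score. When non-stress rats 3 and 4, the farthest from the median score, were left out, r was -0.98 for Ptger3, 0.90 for Gpr149 and 0.34 for Gpr151. None passed over these 6 rats, and Ptger3 had the smallest p that their 48 orders allow (exact permutation p = 0.0208, adjusted p = 0.188). Gpr149 and Ptger3 did not pass after arrays were centred on their median (r 0.81 and -0.89, exact permutation, adjusted p = 0.194 and 0.182) or after quantile normalization (r 0.93 and -0.88, adjusted p = 0.0938 each). With values divided by the group SD, Gpr149 had an r of 0.77 with the score (exact permutation, adjusted p = 0.0742), Gpr151 of 0.24 (adjusted p = 0.564) and Ptger3 of -0.97 (adjusted p = 0.0156). Without stressed rat 8 or 12 or non-stress rat 1, 3, 4 or 5, r with the score was 0.85 to 0.93 for Gpr149 (exact permutation, adjusted p from 0.0625 to 0.163) and -0.996 to -0.95 for Ptger3 (adjusted p = 0.0625 each), and without stressed rat 7 it was 0.89 for Gpr149 (adjusted p = 0.0875). For Ptger3 the p was 0.00694, the smallest that 7 rats allow, except without non-stress rat 5 (exact permutation p = 0.0208). For Gpr149 it was 0.0903 without non-stress rat 1, 3 or 4 (exact permutation), well above that limit. Without stressed rat 10 both relations passed (exact permutation, adjusted p = 0.0375 each).

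**Figure D4:**
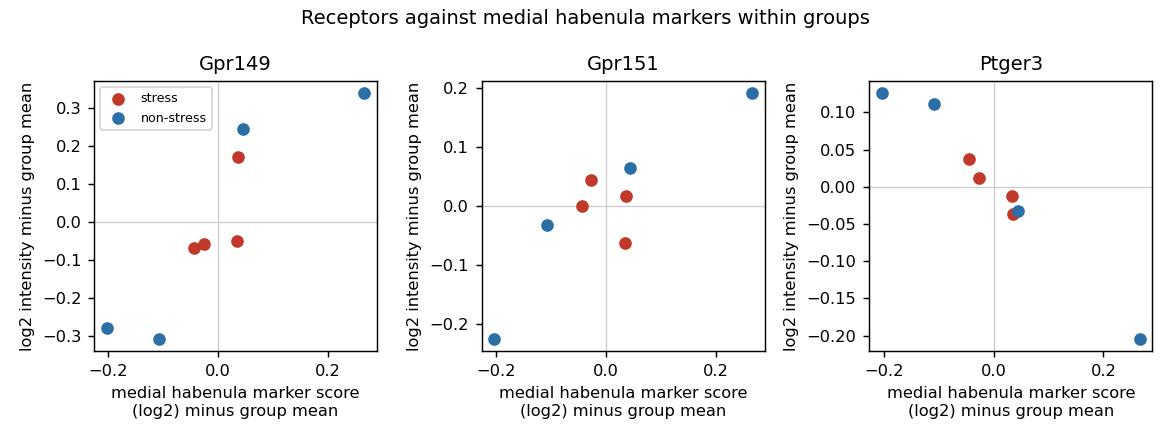
Log2 intensity of each receptor minus its group mean (vertical axis) against the score of 10 medial habenula markers minus its group mean (horizontal axis), for stressed and non-stress rats. Ptger3 falls closely along a descending line (r = -0.99), while Gpr149 and Gpr151 ascend with more scatter (r = 0.89 and 0.88).

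The array median over the table also varied with Gpr149 and against Ptger3, and its relation to Gpr151 did not pass. Within groups its r was 0.88 with Gpr149 (exact permutation p = 0.0139, adjusted p = 0.0313; rho 0.93, adjusted p = 0.0313), 0.71 with Gpr151 (exact permutation p = 0.181, adjusted p = 0.181; rho 0.74, adjusted p = 0.176) and -0.94 with Ptger3 (exact permutation p = 0.00868, adjusted p = 0.0260; rho -0.90, adjusted p = 0.0375). When non-stress rats 3 and 5, the farthest from the middle of this measure, were left out, r was 0.75, 0.55 and -0.81 (exact permutation p = 0.167, 0.396 and 0.0625). Without stressed rat 8 or 12 or any 1 non-stress rat, r was 0.82 to 0.95 for Gpr149 (exact permutation, adjusted p from 0.0625 to 0.146) and -0.97 to -0.83 for Ptger3 (adjusted p from 0.0625 to 0.0938), again with 7 rats. Before adjustment the p-values of these lost calls ran from 0.0139 to 0.0972 (exact permutation), above the smallest that 7 rats allow. Since 210 of the 379 probe sets of the table are lower ones that vary together, this median is no independent measure of array quality.

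Markers of other structures gave the following. Of 9 hippocampal symbols 3 were in the table and all 3 were lower, Neurod1 by a difference of -0.48 ± 0.11, Slc17a7, which the medial habenula also expresses, of -0.31 ± 0.08 and Nrgn of -0.28 ± 0.09. Of all 379 probe sets 55.4% were lower, and nothing is read from the count of these 3. The score of the 3 hippocampal genes ran from -0.24 to -0.15 in stressed and from -0.01 to 0.43 in non-stress rats. Their summed intensity ran from 4384 to 4655 in stressed and from 5134 to 6822 in non-stress rats. The median r within groups of these 3 genes was 0.78 with Gpr149, 0.87 with Gpr151 and -0.94 with Ptger3. Their part in the receptor differences was not tested.

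Vgf, a secreted peptide precursor, was the only lateral habenula marker in the table besides Gpr151 itself. It was higher in stressed rats (9.96 ± 0.07 against 9.67 ± 0.13, difference 0.30 ± 0.08), and its r within groups was -0.88 with Gpr149, -0.70 with Gpr151 and 0.77 with Ptger3. Markers of the thalamus, choroid plexus, ependyma, pineal gland, astrocytes and oligodendrocytes had 0 members present, and the absence of a gene from a table of picked probe sets is no sign that it was equal in the groups. The endothelial transporter genes Slco1a4 and Slco1c1 were lower but had an r within groups of -0.14 and 0.09 with Gpr151. With Gpr149 their r was -0.13 and -0.27. Of 4 meningeal symbols only Slc6a13 was in the table, lower in stressed rats by a difference of -0.31 ± 0.10. Its r within groups was -0.55 with Gpr149, -0.63 with Gpr151 and 0.30 with Ptger3.

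Genes were also ranked by the likeness of rat-to-rat variation (Pearson's r within groups over 8 rats). This is a description chosen as the top among the other probe sets with a single symbol. The 5 closest to Gpr149 were Pak5, a kinase of neurons (r 0.99), the ubiquitin ligase Mid1 (0.96), the calcium-activated chloride channel Ano1 (0.95), the potassium channel Kcnh8 (0.94) and Adcyap1, the precursor of the peptide PACAP (0.94). All 5 were lower in stressed rats, by differences from -0.50 for Kcnh8 to -0.27 for Pak5. Over the table, r with Gpr149 was positive for 187 of 209 other lower and 51 of 169 higher probe sets. The 3 most opposed were the olfactory receptor gene Or2t47 (-0.94), Ptger3 (-0.92) and Vgf (-0.88).

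The 5 genes closest to Gpr151 were the somatostatin receptor Sstr2 (r 0.98), the synaptotagmin Syt6 (0.97), the tyrosine phosphatase Ptprr (0.93), the nicotinic subunit Chrnb4 (0.93) and Ano1 (0.93). Chrnb4 averaged 10.46 ± 0.04 in stressed and 11.09 ± 0.31 in non-stress rats, and Sstr2 8.84 ± 0.09 in stressed and 9.17 ± 0.19 in non-stress rats (SD, n = 4 each). The most opposed were the sodium channel Scn7a (-0.91), the cysteine-forming enzyme Cth (-0.90) and the RNA-editing enzyme Adarb1 (-0.90).

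For Ptger3 the closest were the deubiquitinase Usp2 (r 0.95), Scn7a (0.94), Adarb1 (0.91), the calmodulin-stimulated adenylyl cyclase Adcy1 (0.88) and the olfactory receptor gene Or5p69 (0.82), all of them higher in stressed rats. Over the table, r with Ptger3 was positive for 108 of 168 other higher and 23 of 210 lower probe sets. Scn7a averaged 9.23 ± 0.08 in stressed and 8.59 ± 0.32 in non-stress rats, and Usp2 10.26 ± 0.02 in stressed and 9.94 ± 0.10 in non-stress rats (SD, n = 4 each). Or5p69 averaged 6.25 ± 0.10 in stressed and 5.95 ± 0.15 in non-stress rats, below the array medians. The most opposed were Elfn1, a synaptic adhesion protein (-0.99), the calcium channel Cacna1e (-0.98) and Sytl2, a synaptotagmin-like protein (-0.98). Ano1 was shared by the lists of Gpr149 and Gpr151, and Scn7a and Adarb1 stood at the opposed end for Gpr151 and at the near end for Ptger3.

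Other genes of receptor signalling in the table were few. Of 21 symbols of prostaglandin synthesis, breakdown and reception other than Ptger3, only Pla2g3, a secreted phospholipase A2 that can release arachidonic acid, was present. It was higher in stressed rats (8.99 ± 0.19 against 8.21 ± 0.06, difference 0.78 ± 0.09, n = 4 each), and within groups its r with Ptger3 was 0.11. The cyclooxygenases, the prostaglandin E synthases and the other prostaglandin E receptors were not in the table, so no value is given for them. Of 73 other orphan receptors only Gpr34, a receptor of microglia, was present, at 8.30 ± 0.17 in stressed and 8.89 ± 0.05 in non-stress rats (difference -0.58 ± 0.09), with an r within groups of -0.00095 with Gpr149, 0.06 with Gpr151 and 0.02 with Ptger3. Tmem119, the other of 6 microglial markers in the table, was higher in stressed rats (9.78 ± 0.13 against 9.41 ± 0.17, difference 0.37 ± 0.10), with an r of 0.56 with Gpr149, 0.65 with Gpr151 and -0.60 with Ptger3.

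Of 100 symbols of peptide, amine, glutamate, GABA, lipid, adenosine and nucleotide receptors 8 were in the table, 2 higher and 6 lower in stressed rats. Of all probe sets 55.4% were lower. The median difference of the 8 was -0.34, beside -0.28 over all probe sets. The lower ones were the somatostatin receptors Sstr4 (-0.42 ± 0.10) and Sstr2 (-0.33 ± 0.10), the substance P receptor Tacr1 (-0.39 ± 0.11), the neurotensin receptor Ntsr1 (-0.38 ± 0.09) and the serotonin receptors Htr4 (-0.34 ± 0.10) and Htr5b (-0.32 ± 0.09). The higher ones were the neuropeptide Y receptor Npy1r (0.37 ± 0.09) and the adrenergic receptor Adra1d (0.26 ± 0.08). Of the 8, r within groups was positive with Gpr151 for 7 and negative with Ptger3 for 6. Over the table, r with Gpr151 was positive for 185 of 209 other lower and 52 of 169 higher probe sets. With Ptger3 it was negative for 187 of 210 lower and 60 of 168 other higher probe sets. Nothing is read from the counts of the 8.

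Genes of Gi and cyclic AMP signalling went both ways. Of 53 symbols 6 were in the table, 3 higher and 3 lower in stressed rats, with a median difference of -0.01. Kcnj9, a subunit of the potassium channels that Gi-coupled receptors open, was higher by 0.40 ± 0.09, the exchange factor Rapgef5 by 0.35 ± 0.08 and Adcy1 by 0.27 ± 0.08. Lower in stressed rats were Pde2a (-0.38 ± 0.10) and Pde1a (-0.35 ± 0.08), which break down cyclic nucleotides, and Creb3l1 (-0.29 ± 0.10), a transcription factor. Adcy1 was at 11.25 ± 0.04 in stressed and 10.98 ± 0.14 in non-stress rats.

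**Figure D5:**
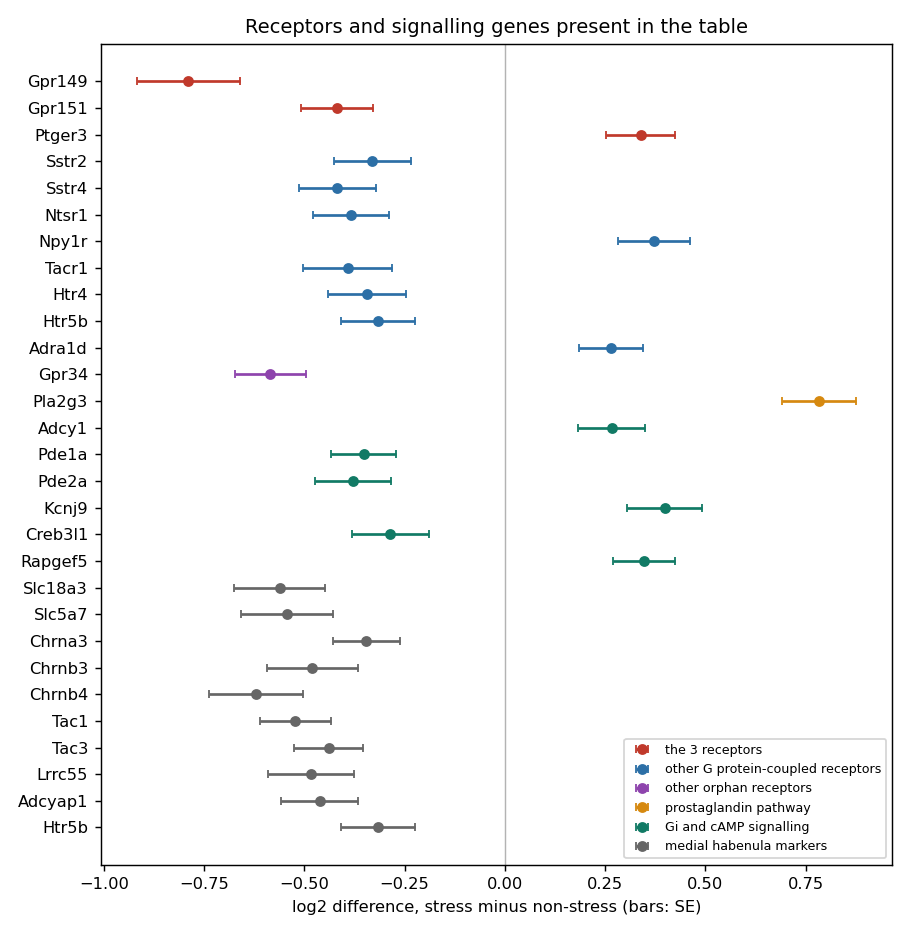
Log2 differences, stress minus non-stress, with limma's SE (bars), for the 3 receptors and for the genes of 5 lists that are in the table; colours mark the list, and Htr5b stands in 2 of them. Gpr149 at -0.79 lies farthest to the left, Pla2g3 at 0.78 farthest to the right, and all 10 medial habenula markers lie left of 0.

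The sequence upstream of Ptger3 is shown because this receptor alone of the 3 was higher in stressed rats, and was the one with an entry in the RefSeq promoter table used here. The 153 bases run up to the annotated gene start (GRCr8, chr2:249264832-249264984, plus strand), with capitals marking GC boxes, the letters GGGCGG on either strand.
Ptger3: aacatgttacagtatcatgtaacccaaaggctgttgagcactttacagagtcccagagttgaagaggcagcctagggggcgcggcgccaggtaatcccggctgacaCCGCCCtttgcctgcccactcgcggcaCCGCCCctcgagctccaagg
The full 300-base window held 3 GC boxes, 2 of them in the printed part, and 33.1% of the 33469 windows of that length in the table hold at least 1. Its GC content was 69.7%, where the median window had 51.7%. It held 0 matches to the palindromic glucocorticoid response element, to the cAMP response element TGACGTCA and to the E-box CACGTG, searched on both strands, which 0.0149%, 1.83% and 6.42% of all windows hold. The absence of these letters from the window says nothing about the factors that bind them.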

How the data were processed

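Values were deposited as log2 intensities, 1 per probe set, from arrays hybridised with biotin-labelled target, made with a whole-transcript amplification kit per the labels' protocols. How the authors corrected background, summarized and normalized the arrays is not given in the sources used here. No batch is labelled. The 2 tables agreed in all 379 probe sets (largest gap 0). The deposited p-value per probe set is unadjusted, and the deposited difference equals the log2 difference of group means. All 283 single symbols matched the RefSeq table by gene ID; 5 probe sets had several symbols and 91 none.

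Differences and SEs came from limma 3.58.1 in R 4.3.3, fitted over all 379 probe sets. Correlations were computed in Python 3.11.15 on each rat's distance from its group mean, with an exact test that permutes rats within groups and Benjamini-Hochberg adjustment over 9 relations (threshold 0.05): 3 receptor pairs, and each receptor with the score of 10 medial habenula markers and with the array median. The scripts were tested on simulated data. Genes named are the 3 receptors, the 5 closest and 3 most opposed to each by r among probe sets with a single symbol, and list members in the table. Receptors and lists were chosen with earlier results of these data known. Where nothing says otherwise, p-values measure the spread between these 8 rats, and their number limits the precision.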

Additional observations from a re-analysis of the deposited data

Results flagged for a closer look

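Gpr149 in stressed rat 12 was at 8.82, apart from the other stressed rats at 8.58 to 8.60. Its gap to the nearest rat was 0.922 of the group's whole range, above Dixon's 95% critical value for 4 samples. This was the only such value among the 10 group values checked (3 receptors, the medial habenula score and the array median in each group). Chance gives about 1 in 20 for each group value checked, so 1 among 10 is not unusual. Without this rat the difference of Gpr149 was -0.85, against -0.79 with it.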

How the results depend on the processing

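Directions held throughout: the group differences of Gpr149, Gpr151 and Ptger3 kept their sign and moved by less than 1 SD, pooled over both groups, in the 10 alternatives that can move them (array centring, quantile normalization and each of 8 rats left out). The deposited differences and removal of the dimmest 25% of probe sets leave the differences as they are by construction. With 1 rat left out they ran from -0.89 to -0.68, from -0.49 to -0.36 and from 0.27 to 0.38. With quantile normalization the median over all probe sets rose by 0.10, and the 3 differences were then -0.75, -0.35 and 0.36.

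Within-group relations kept their sign, and those that had passed mostly lost the threshold. For Gpr149 with Ptger3, r was -0.87 after centring, -0.83 after quantile normalization and -0.77 without 2 rats. For Gpr149 with the medial habenula score it was 0.81, 0.93 and 0.90, and 0.77 with values divided by the group SD. For Ptger3 with the score it was -0.89, -0.88 and -0.98. With the array median, r without 2 rats was 0.75 for Gpr149 and -0.81 for Ptger3, and 0.82 for Gpr149 with values divided by the group SD. With 1 rat left out, the ranges of r were 0.65 to 0.90 (Gpr149, Gpr151), -0.97 to -0.89 (Gpr149, Ptger3), -0.90 to -0.66 (Gpr151, Ptger3), 0.85 to 0.93, 0.76 to 0.94 and -0.996 to -0.95 (Gpr149, Gpr151 and Ptger3 with the score), and 0.82 to 0.95, 0.35 to 0.84 and -0.97 to -0.83 (with the array median). Fewer rats allow fewer orders, which raises the smallest possible p, although several of the lost calls lay above that limit. No paired analysis was possible because the groups share no rat numbers.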
